A study of Mus musculus with 6 samples.

Results

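The regions described here are the ChIP-seq peaks that lay in simple repeats, low-complexity stretches or satellite DNA. A peak was taken when the class in its deposited annotation, with question marks dropped, was Simple_repeat, Low_complexity or Satellite. Of 97783 peaks in 6 lists, 4748 met this rule. Chromatin immunoprecipitation followed by sequencing had been done on primary neural stem cells from newborn mouse cortex kept in medium with EGF and bFGF, with 1 library in each of 6 groups. The Seh1-flag library is titled iKO, is labelled wild type and had 4-OH-TAM in its medium, and the name in its header begins with oe before seh1. The Seh1 Ctrl and Chd4 Ctrl libraries came from wild type cells in growth medium. The Chd4 iKO library came from cells labelled mutant, with 4-OH-TAM in the medium. The Chd4 siSCR and Chd4 siSeh1 libraries came from wild type cells in growth medium and are known only by those titles. The labels do not say what drives the deletion in iKO cells, nor if endogenous Seh1 remained in the Seh1-flag library. With 1 library in each group no difference between lists could be tested. Intervals of shares are exact Clopper-Pearson intervals at 95%, those of differences combine the intervals of both shares, those of medians come from order statistics, and all cover counting error only. Neighbouring peaks of one array share a sequence and are not independent, so the intervals are too narrow there.

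Seh1 is a nucleoporin of the Y-shaped scaffold of the nuclear pore, and Chd4 is the ATPase of the NuRD complex, which remodels nucleosomes and removes histone acetylation. Simple repeats are short units copied head to tail, low-complexity stretches are biased in base composition without a clean unit, and satellites are long tandem arrays. In the mouse the major satellite (GSAT_MM in the annotation) fills the pericentromeric heterochromatin, which gathers into the chromocentres of the nucleus. Arrays of near-identical copies are poorly placed by short reads, and the sources used here do not say how reads with several matches were treated.

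The most frequent repeat under these peaks was a tract of A or T, and 5 examples from the Seh1-flag list show what such a tract looks like. They lie in RefSeq promoter windows of GRCm38.p6, since no other genomic sequence of this build was used. The first 2 carry peaks annotated as simple repeats. The other 3 carry peaks that the annotation calls promoters, so that the class rule passes over them, and they are shown because the same tract is there. Each line is written 5′ to 3′ on the strand of the named gene, and capitals mark the run of A or T nearest the peak. Up to 60 bases are shown on each side of the run, and for protein-coding genes none past the start site. The Srebf1 stretch reaches the start site, and those of Mgat4a and Ccdc65 end before it.
Gm40798: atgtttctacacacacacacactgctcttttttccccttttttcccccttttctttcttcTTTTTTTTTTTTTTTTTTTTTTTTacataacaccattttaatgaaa
Gm36746: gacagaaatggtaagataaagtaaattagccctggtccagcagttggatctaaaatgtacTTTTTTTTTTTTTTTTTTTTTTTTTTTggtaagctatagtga
Mgat4a: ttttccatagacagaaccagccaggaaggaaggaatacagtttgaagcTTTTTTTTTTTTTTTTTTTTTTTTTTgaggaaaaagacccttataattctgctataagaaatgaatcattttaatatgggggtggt
Ccdc65: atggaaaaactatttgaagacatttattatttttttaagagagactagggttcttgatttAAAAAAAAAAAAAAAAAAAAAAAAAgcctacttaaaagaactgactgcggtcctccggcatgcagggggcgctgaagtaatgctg
Srebf1: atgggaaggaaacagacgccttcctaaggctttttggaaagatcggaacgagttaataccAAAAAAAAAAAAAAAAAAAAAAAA
The stretches are chr10:126977471-126977576 on the minus strand for the noncoding gene Gm40798, chr17:70717628-70717729 on the minus strand for Gm36746, chr1:37536521-37536654 on the minus strand for Mgat4a, chr15:98707996-98708140 on the plus strand for Ccdc65 and chr11:60222582-60222665 on the minus strand for Srebf1. Mgat4a encodes an N-glycan branching enzyme and Srebf1 a transcription factor of lipid synthesis. The runs are 24, 27, 26, 25 and 24 bases long, in the order printed. The peaks lay 5.5, 11, 30.5, 16 and 7.5 bp from the centres of the runs, in that order, and their deposited scores were 5.86, 4.16, 8.25, 6.19 and 4.65. All 5 peaks therefore sat on or beside the tract itself.

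The Seh1-flag list held the largest share of peaks in these repeats among the 6 lists. In Seh1-flag, 3020 of 24961 peaks, or 12.1% (11.7 to 12.5), met the rule. The other Seh1 list, Seh1 Ctrl, had 552 of 20833, or 2.65% (2.44 to 2.88). Among the Chd4 lists the share was 3.90% for Ctrl cells (45 of 1154, 2.86 to 5.18), 2.21% for iKO (471 of 21294, 2.02 to 2.42), 2.53% in siSCR (66 of 2606, 1.96 to 3.21) and 2.21% in siSeh1 (594 of 26935, 2.03 to 2.39). The 5 lists other than Seh1-flag thus lay between 2.21% and 3.90%, and the Seh1-flag interval lay above all of theirs. Among these 5, Chd4 Ctrl was highest, and its interval lay above those of iKO and siSeh1. The Chd4 Ctrl list was unusual in that 23.7% of all its peaks were on chromosome X, against 4.07% to 7.47% in the other lists. On numbered autosomes the share was 4.41% in Chd4 Ctrl (3.14 to 6.01) and 2.01% in iKO (1.82 to 2.21). The SINE share was also highest in Seh1-flag, at 15.1% against 3.81% to 7.29% in the other lists. SINEs are short retroelements that end in an A-rich tail, and their part in the Seh1-flag share was not tested.

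**Figure D1:**
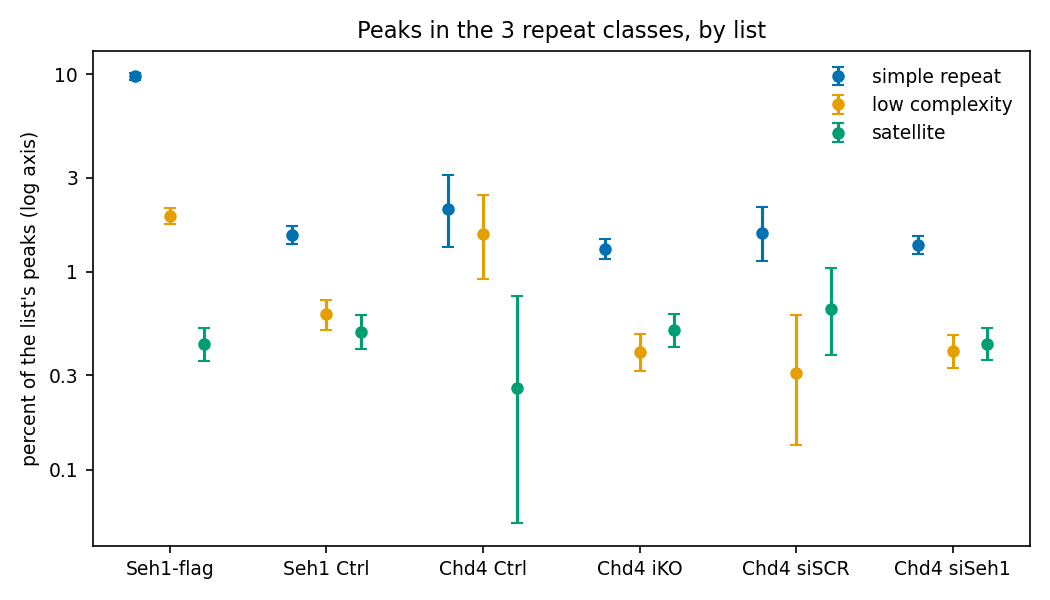
Percent of each list's peaks (log axis) in simple repeats, low-complexity stretches and satellites, 1 library per list, with exact 95% intervals as bars. Simple repeats in Seh1-flag, at 9.75%, stand apart from the 1.31% to 2.08% of the other lists, while satellites lie between 0.260% and 0.652% in all 6.

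Simple repeats accounted for most of the Seh1-flag excess. They numbered 2433 in Seh1-flag, 321 in Seh1 Ctrl, 24 in Chd4 Ctrl, 279 in iKO, 41 for siSCR and 370 for siSeh1. Low-complexity stretches numbered 479, 127, 18, 84, 8 and 107, in the same order of lists. Satellites numbered 108, 104, 3, 108, 17 and 117. As a share of the members, satellites made up 3.58% in Seh1-flag and 18.8%, 6.67%, 22.9%, 25.8% and 19.7% in the other lists. The satellite numbers were thus close in the 4 long lists, whichever protein was immunoprecipitated, and what set Seh1-flag apart was the other classes.

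Between the Chd4 lists of perturbed and control cells the share differed with how much of each list was counted. Of all peaks, the share of iKO minus that of Ctrl was -1.69 percentage points (-2.99 to -0.626), and that of siSeh1 minus that of siSCR was -0.327 points (-1.03 to 0.270), an interval that includes 0. On numbered autosomes the latter was -0.0026 points. With each ranked list cut to its 1154 highest scores, the length of the Ctrl list, the shares became 7.28% in iKO, 3.90% in Ctrl, 5.55% in siSeh1 and 3.29% in siSCR. The differences were then 3.38 points (1.46 to 5.33) for iKO minus Ctrl and 2.25 points (0.522 to 4.01) for siSeh1 minus siSCR. In this cut, major satellite (GSAT_MM) peaks were 69 of 84 members in iKO and 59 of 64 in siSeh1. They were 10 of 38 in siSCR and 3 of 45 in Ctrl. Peaks of one array are not independent, so these intervals are too narrow. The perturbed lists were the longer ones in both pairs, and list length and condition cannot be told apart in the full lists. The cut keeps the upper end of a long list but all of Ctrl, so it does not separate length from condition either.

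The Seh1-flag simple repeats were of one kind. In this list 1934 of 2433 simple-repeat peaks, or 79.5% (77.8 to 81.1), lay in tracts with a unit of 1 base, and every one of these was A or T, 964 written as A and 970 as T. Seh1 Ctrl had 16 such peaks of 321, or 4.98% (2.88 to 7.97). Chd4 Ctrl had 0 of 24, which allows a share of up to 14.2%, iKO had 9 of 279 (3.23%), siSCR 1 of 41 (2.44%) and siSeh1 12 of 370 (3.24%). A or T tracts thus formed the bulk of the class in 1 list and a few percent of it at most in the other 5. The Seh1-flag tracts were spread over 22 chromosomes or contigs and did not come from a single array. Stretches annotated as A-rich or T-rich, the low-complexity relatives of these tracts, added 188 and 181 Seh1-flag peaks. Together the tracts and the A-rich and T-rich stretches came to 2303 peaks, or 76.3% of the Seh1-flag members. The same sum was 10.3% of the members in Seh1 Ctrl, 11.1% in Chd4 Ctrl, 6.16% in iKO, 1.52% for siSCR and 5.72% for siSeh1.

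**Figure D2:**
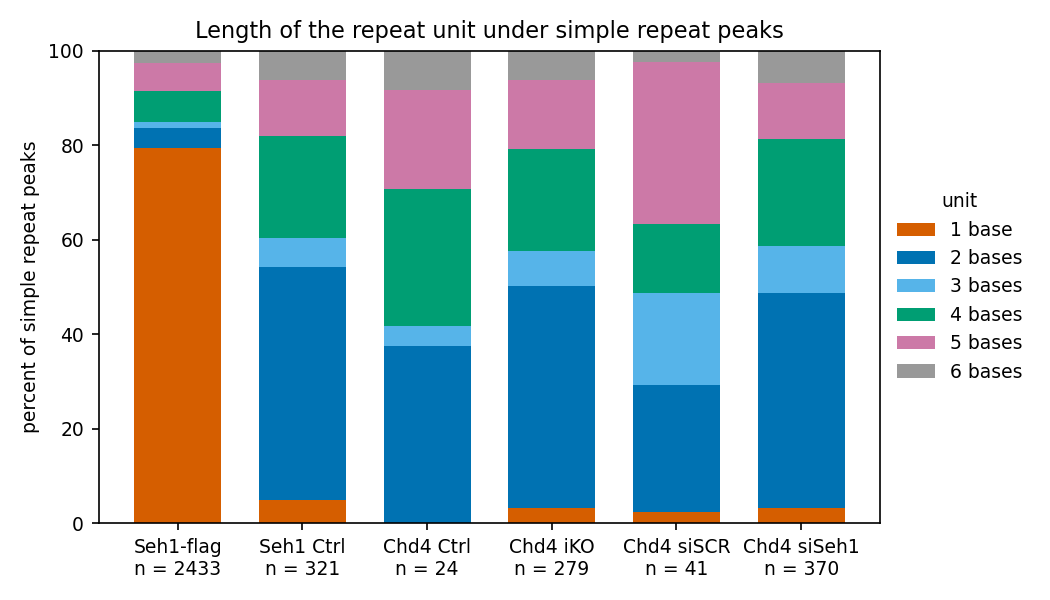
Percent of simple-repeat peaks by the length of the repeat unit in bases, for each list, with the number of simple-repeat peaks under its name. Units of 1 base fill 79.5% of the Seh1-flag bar and at most 4.98% of any other bar, where units of 2 bases are the largest or second largest group.

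The tracts lay in introns and between genes. Of the Seh1-flag tracts, 859 were intronic, and for 675 of these the strand of the gene was known. The A-containing strand was the sense strand of the gene in 264 (39.1%, 35.4 to 42.9) and the T-containing strand in 411. Intronic tracts read as T on the sense strand were therefore the more frequent kind in this list. How such tracts are oriented in introns at large was not measured, so this cannot be called a trait of the peaks. The corresponding counts in the other lists, 6 or fewer peaks with a known strand in each, were too small to compare.

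Promoter windows gave a measure of the tracts that did not depend on the repeat annotation. This comparison was chosen after the data were seen. The windows run from 250 bases before to 50 bases after each RefSeq start, and the motif was AAAAAAAAAAAA or its complement TTTTTTTTTTTT, searched on both strands. Of 32817 windows of this length, 1061 (3.23%, 3.04 to 3.43) held the motif. The Seh1-flag list had 33 peaks inside such windows, and 25 of them (75.8%, 57.7 to 88.9) lay in a window with the motif. For these 25 the median distance from the peak to the centre of the nearest run was 25 bp, and 21 of them were within 50 bp. Runs of 20 or more bases were in 21 of the 33 windows, against 205 windows (0.625%) of all. Of the 25 peaks, 2 were members. Seh1 Ctrl had the motif at 0 of 39 promoter-window peaks, where a count of 0 allows up to 9.03%. In the Chd4 lists it was at 12 of 704 in iKO (1.70%), 1 of 259 in siSCR (0.386%) and 35 of 1646 in siSeh1 (2.13%), and Chd4 Ctrl had no peak in a window. The Seh1-flag value was the one that lay far above the share of all windows. A match describes these letters in these windows and is no evidence of a binding site.

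Deposited scores, whose scale is not stated, were used for ranking within a list, with a percentile of 100 for the highest score. The A and T tracts in Seh1-flag had a median percentile of 60.7 (59.3 to 63.4), against 48.9 for all peaks of the list, and tied scores were common. Their best peak, at position 70222509 of chromosome 10 near Mrln, which encodes a small muscle membrane peptide, had a score of 31.1 and rank 22. In the 10% of the list with the highest scores 276 of 2496 peaks (11.1%, 9.85 to 12.4) were tracts, and in the last 2 of 10 equal slices the share was 3.57% and 4.81%. The tracts were therefore present along the whole ranking and, by these slices, most frequent in the first. Whether this held at the very highest scores was not settled. In the top 1% of the list were 18 of the 1934 tracts (0.931%), against 0.998% of all peaks. Of the 500 highest scores, 45 (9%, 6.64 to 11.9) were tracts. That interval includes both the 11.1% of the first slice and the 7.75% of the whole list. Seh1-flag peaks on the unit AC had a median percentile of 30.5 (24.0 to 48.9).

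**Figure D3:**
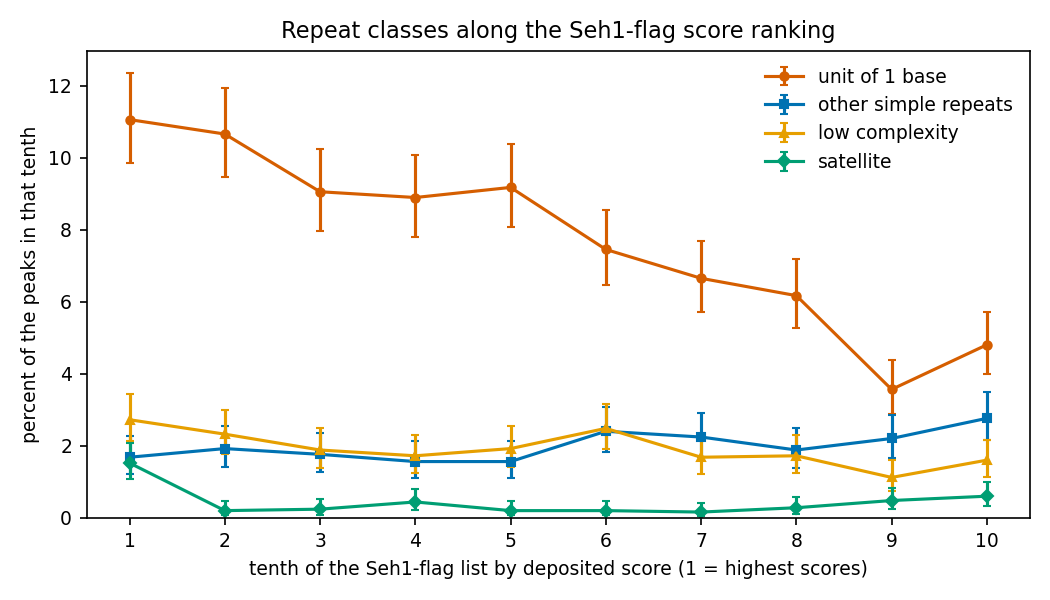
Percent of peaks in each of 10 equal slices of the Seh1-flag list, ordered by deposited score, that lay in tracts of A or T (unit of 1 base), other simple repeats, low-complexity stretches and satellites, with exact 95% intervals. The tracts go from 11.1% in the first slice to 4.81% in the last, and satellites are at 1.52% in the first slice and at or below 0.601% in the rest.

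The alternation of A and C, read as TG or GT on the other strand, was the most frequent simple repeat in Seh1 Ctrl, Chd4 Ctrl, iKO and siSeh1, and in siSCR it was level with a 5-base unit. It lay under 125 Seh1 Ctrl peaks (38.9% of the simple repeats, 33.6 to 44.5), 5 Chd4 Ctrl peaks (20.8%), 100 iKO peaks (35.8%), 10 siSCR peaks (24.4%, or 9.09% in the higher-scoring 50% of that list) and 136 siSeh1 peaks (36.8%). The Seh1-flag list had 87, or 3.58% of its simple repeats. As a number of peaks this unit was therefore of the same order in the 4 long lists. The next most frequent units were AG in Seh1 Ctrl (26), iKO (30) and siSeh1 (28), and AAAAG in Seh1-flag (65). Median percentiles of peaks on AC repeats were 48.1 in iKO, 48.8 in siSeh1, 26.4 in siSCR and 56.8 in Chd4 Ctrl, which for Chd4 Ctrl equals the median of the whole list.

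A 5-base unit, CTGTG or CACAG on the opposite strand, had a high median rank on few peaks. It lay under 7 peaks in Seh1-flag, 2 in Seh1 Ctrl, 0 in Chd4 Ctrl, 8 in iKO, 10 for siSCR and 9 for siSeh1, several of them neighbours in one array. In siSCR these were 24.4% of the simple repeats. The median percentile was 91.1 (6.22 to 99.7) in Seh1-flag, 98.1 (74.9 to 99.4) in iKO, 96.8 (75.1 to 99.7) in siSCR and 94.3 (22.8 to 99.7) in siSeh1. In siSCR 4 of the 10 peaks were in the top 1% of the list. Single peaks ranged widely: in Seh1-flag 3 of the 7 lay at percentiles of 6.22, 25.3 and 26.4, and in siSeh1 4 of the 9 lay at 15.8, 22.8, 56.03 and 59.6.

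Intron 1 of 11 of Smo, the transmembrane transducer of Hedgehog signalling, held such an array, with peaks between positions 29748289 and 29748462 of chromosome 6. The score there was 14.9 (rank 146) in Seh1-flag, 10.3 (rank 175) in iKO, 19.6 (rank 5) in siSCR and 6.07 (rank 1527) in siSeh1, and Seh1 Ctrl had an unranked peak. Intron 1 of 4 of the noncoding gene 2700054A10Rik on chromosome 17 had peaks of 5 lists between positions 13552809 and 13552868. They scored 18.1 in Seh1-flag, 11.8 in iKO, 19.2 (rank 8) in siSCR and 18.8 in siSeh1. In the same intron 4 lists had a second peak between 13551015 and 13551040, with scores of 3.70, 10.2, 5.97 and 19.4 in the same order. An intergenic array nearest Zfp825 on chromosome 13, a zinc-finger gene, had peaks between 74530479 and 74530516, at 7.92 in Seh1-flag, 6.999 in iKO, 15.99 (rank 15) in siSCR and 31.5 (rank 14) in siSeh1. These loci had peaks in siSCR as well as in siSeh1, and scores of different lists are not on a known common scale, so no change between conditions can be read from them.

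The satellite peaks were mostly major satellite. GSAT_MM accounted for 82 of 108 satellite peaks in Seh1-flag, 81 of 104 in Seh1 Ctrl, 3 of 3 in Chd4 Ctrl, 85 of 108 in iKO, 12 of 17 for siSCR and 84 of 117 for siSeh1. The next type, IMPB_01, had 23, 20, 0, 20, 3 and 26 peaks in the same order. MMSAT4, MurSAT1, ZP3AR, SYNREP_MM and a CATTC repeat classed as satellite made up the rest, with 1 to 5 peaks a list where present. The types were therefore nearly the same in the 4 long lists.

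Most of the major satellite peaks fell into a few blocks of the assembly. The block at the start of chromosome 9, positions 3000129 to 3037232 (37104 bp), held 15 peaks in Seh1-flag, 33 in Seh1 Ctrl, 1 in Chd4 Ctrl, 32 in iKO, 2 for siSCR and 32 for siSeh1. The gene named nearest the chromosome 9 block is the microRNA gene Mir101c. The unplaced contig JH584304 held 32, 38, 0, 41, 7 and 39 peaks over 53584 bp. Neighbouring peaks in the chromosome 9 block were a median of 1073 bp apart in Seh1 Ctrl, 1096 bp in iKO and 1119 bp in siSeh1. Other unplaced contigs held 31 of the 82 Seh1-flag peaks and 3 to 6 peaks in each other list but Chd4 Ctrl, which had 1. The assembled blocks stand for arrays that are far longer in the genome, so a peak in them cannot be assigned to a chromosome.

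**Figure D4:**
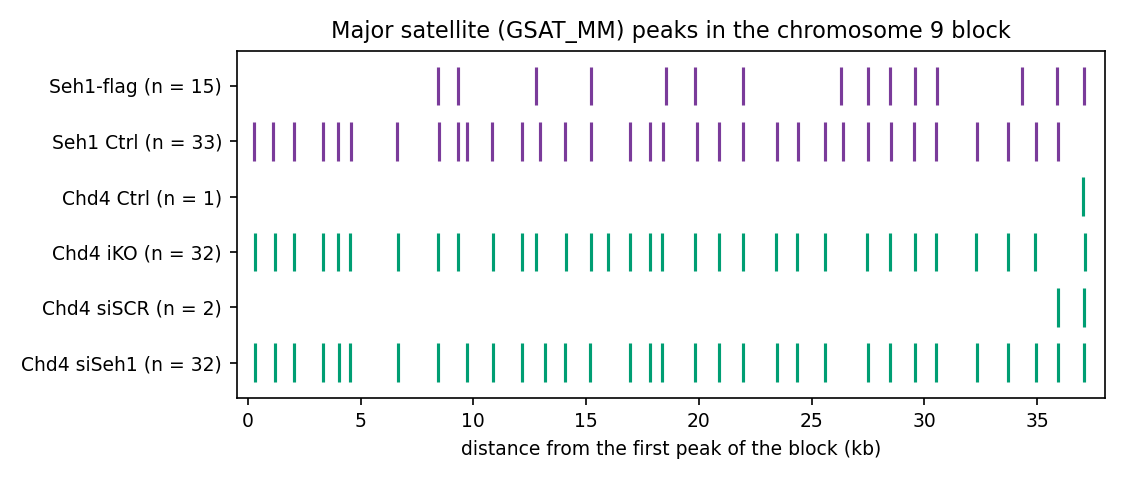
Position of each GSAT_MM peak in the chromosome 9 block, as distance in kb from the first peak of the block, with 1 row per list (purple for Seh1, green for Chd4). The 33 Seh1 Ctrl, 32 iKO and 32 siSeh1 peaks form nearly the same ladder, with 15 peaks in Seh1-flag, 2 in siSCR and 1 in Chd4 Ctrl.

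Major satellite peaks had high scores in the Chd4 lists of perturbed cells and, on fewer peaks, in that of siSCR cells. In iKO their median percentile was 99.1 (98.8 to 99.4), 49 of 85 were in the top 1% of the list, and the best had rank 6 with a score of 29.7. In siSeh1 the median was 97.4 (96.7 to 98.5), 27 of 84 were in the top 1%, and the best had rank 23 with a score of 28.1. In siSCR the median of 12 peaks was 93.8 (68.9 to 98.0), and the best had rank 7 with a score of 19.3. The 3 peaks of Chd4 Ctrl had scores of 4.71, 4.44 and 3.09, at a median percentile of 79.9. In Seh1-flag the median was 76.7 (61.2 to 91.6), and the best, on contig JH584304, had rank 13 with a score of 40.003. The median of the major satellite thus lay above the middle of each of the 5 ranked lists, which differ in length. IMPB_01 satellites had medians of 40.5 in iKO, 38.7 in siSeh1 and 24.0 in Seh1-flag, and 69.9 on 3 peaks in siSCR. Seh1 Ctrl has no scores, and its GSAT_MM intervals had a median width of 333 bp against 273 bp for all its peaks.

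In the full lists the satellite share was 0.507% in iKO (0.416 to 0.612) against 0.260% in Chd4 Ctrl (0.0536 to 0.758). It was 0.434% in siSeh1 (0.359 to 0.520) against 0.652% in siSCR (0.380 to 1.04). Within each pair the intervals overlap. Among the 1154 highest scores of each list there were 69 GSAT_MM peaks in iKO, 59 in siSeh1, 10 in siSCR, 24 in Seh1-flag and 3 in Chd4 Ctrl. The full-list values are shares of all satellites and these are counts of GSAT_MM alone, which are different measures. As a satellite share of the 500 highest scores the values were 6.8% in siSeh1 and 1.8% in siSCR. For silencing the satellite share was thus higher in siSeh1 at the upper ends, while the full lists, with overlapping intervals, gave no clear direction. The 500 highest scores are a far smaller part of siSeh1 (26935 peaks) than of siSCR (2606 peaks). The cut to 1154 scores keeps the upper end of a long list, where these peaks rank high, but all of Chd4 Ctrl. It therefore does not separate list length from condition. These equal-length values were chosen after the data were seen. Depth, input and antibody lots are not in the files used here, and their part in these counts was not tested.

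**Figure D5:**
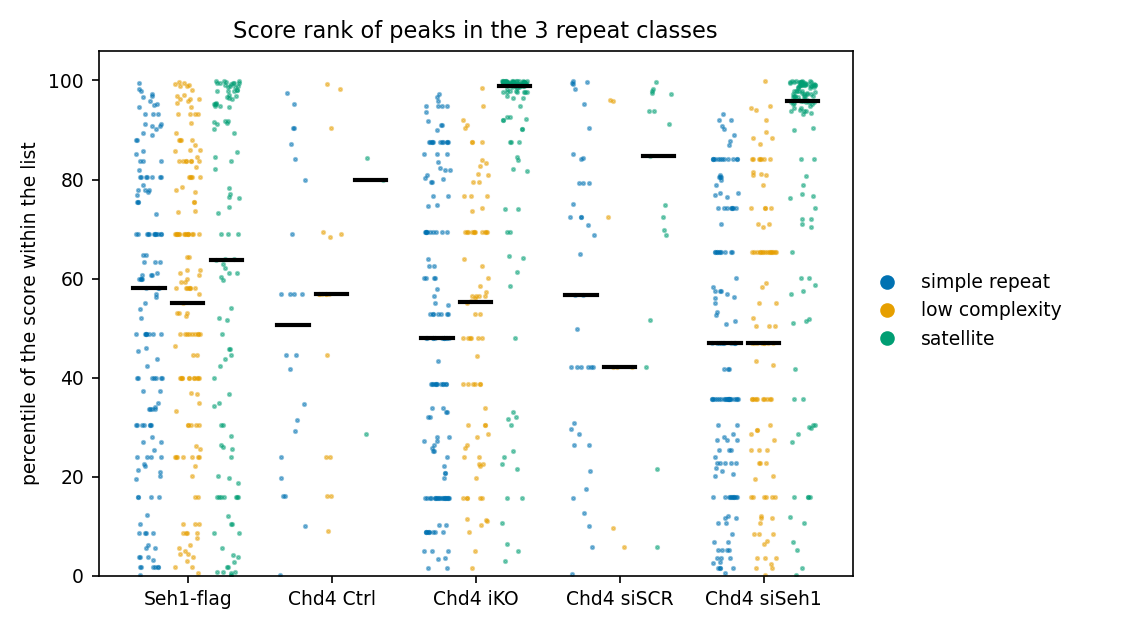
Percentile of the deposited score within its list (100 is the highest) for member peaks in the 5 ranked lists, 1 point per peak with at most 150 points drawn per class and list, and black bars at the medians of all peaks of the class. Satellite medians are at 98.8 in iKO and 95.8 in siSeh1, against 48.1 and 46.9 for simple repeats there.

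Simple repeats and low-complexity stretches ranked near the middle of the Chd4 lists. Median percentiles of simple repeats were 48.1 in iKO, 46.9 in siSeh1, 56.7 in siSCR and 50.7 in Chd4 Ctrl, and those of low-complexity peaks were 55.3, 46.9, 42.1 and 56.8. Among low-complexity types the AT_rich stretches led in Seh1 Ctrl (49 of 127), Chd4 Ctrl (11 of 18), iKO (24 of 84) and siSeh1 (46 of 107). The Chd4 Ctrl peak with the highest score of the class, 12.8 at rank 10, was an AT_rich stretch on chromosome X near 4932411N23Rik. A G-rich stretch 4.2 kb from Tmem125, a transmembrane protein gene on chromosome 4, had peaks of 3 lists between positions 118547949 and 118547977. Its scores were 12.2 (rank 301) in Seh1-flag, 8.12 (rank 108) in siSCR and 22.5 (rank 57) in siSeh1. It was the single low-complexity locus with peaks of 3 or more lists.

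Members of several lists overlapped peaks of another list more often than the whole list did. Between iKO and siSeh1 this held, against the share of the whole list, for satellites and for no other class. Positions were widened to 240 bp and had to share at least 1 bp. Of the iKO members, 79 of 471 (16.8%) overlapped a siSeh1 peak, against 4.79% of all iKO peaks. By class it was 72 of 108 satellites, 7 of 279 simple repeats (2.51%) and 0 of 84 low-complexity peaks. In the opposite direction 82 of 594 siSeh1 members (13.8%) overlapped iKO, against 3.79% of all. By class, in the same order, it was 71 of 117, 9 of 370 (2.43%) and 2 of 107 (1.87%). Of the siSCR members, 18 of 66 (27.3%, 17.0 to 39.6) overlapped siSeh1, against 15.8% of all siSCR peaks. Among the intron and intergenic peaks outside the 3 classes these shares were 1.15% in iKO, 0.939% in siSeh1 and 3.58% in siSCR. Simple repeats lay above these values in iKO (2.51%, 1.01 to 5.10) and in siSeh1 (2.43%, 1.12 to 4.57), and the iKO interval includes 1.15%. Low-complexity peaks lay below in iKO and above in siSeh1, on 0 and 2 overlapping peaks. Of the Chd4 Ctrl members, 1 of 45 overlapped iKO, against 1.21% of all, and 3 of 45 overlapped siSCR, against 5.29% of all, which were shares near those of the whole list. Between the Seh1 lists, 42 of 552 Seh1 Ctrl members (7.61%) overlapped Seh1-flag, against 0.845% of all Seh1 Ctrl peaks, and 50 of 3020 Seh1-flag members (1.66%) overlapped Seh1 Ctrl, against 0.705% of all. Across the proteins, 77 of 552 Seh1 Ctrl members (13.9%) overlapped iKO, against 1.13% of all.

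Among the members, major satellite peaks made up most of the overlap between iKO and siSeh1. Of 85 iKO GSAT_MM peaks, 70 overlapped siSeh1 and 73 overlapped Seh1 Ctrl, which 1.11% of all iKO peaks did. Of 81 in Seh1 Ctrl, 72 overlapped iKO and 35 overlapped Seh1-flag. Neighbours in the chromosome 9 block were a median of 1073 bp apart in Seh1 Ctrl and 1096 bp in iKO. With peaks packed this closely overlap is more likely than over a whole list, so the share of all peaks is no matched background. In the chromosome 9 and JH584304 blocks the nearest siSeh1 peak lay a median of 12 bp from an iKO peak, and 62 of 73 iKO peaks had one within 50 bp. From Seh1 Ctrl to iKO the median was 22 bp, with 52 of 71 within 50 bp. The ladders thus coincided in lists of different immunoprecipitated proteins. Of the simple-repeat peaks in Seh1-flag, 13 of 2433 (0.534%) overlapped Seh1 Ctrl, a share near the 0.705% of the whole list. Members whose windows overlapped were joined over the 6 lists into 4503 loci, and 4386 of these came from a single list. Of the 82 loci with peaks of 3 or more lists, 75 were GSAT_MM, 6 were simple repeats and 1 was low complexity. No locus had peaks of all 6 lists.

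By construction of the annotation, all members lay in introns, between genes or at positions with no annotation. Introns held 1218 of the Seh1-flag members (40.3%), 186 in Seh1 Ctrl (33.7%), 8 in Chd4 Ctrl (17.8%), 144 in iKO (30.6%), 18 for siSCR (27.3%) and 196 for siSeh1 (33.0%). The median distance to the nearest transcription start was 43955 bp in Seh1-flag, against 49178 bp for the other intron and intergenic peaks of that list. Across the lists 27 members lay within 1 kb of a start, all on its downstream side, and 20 of them belonged to protein-coding genes. There were 14 in Seh1-flag, 3 in Seh1 Ctrl, 0 in Chd4 Ctrl, 4 in iKO, 6 in siSeh1 and 0 in siSCR, and no gene had one in more than 1 list. The annotation names promoters before repeats, so few members can lie there, and their side of the start cannot be read as a result. The share within 1 kb was 0.464% of Seh1-flag members against 0.345% of the other intron and intergenic peaks, and 1.01% against 1.00% in siSeh1.

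In Seh1-flag the 5 highest of these next to protein-coding genes were in Pls3, an actin bundler (A tract, score 8.25), the zinc-finger genes Zfp846 (A tract, 7.53) and Zscan5b (TTTTC unit, 7.29), Polr2k, a subunit shared by the RNA polymerases (T tract, 6.61), and the nucleolar gene Nol7 (TTTTC unit, 5.75). In iKO the highest was in intron 1 of Pot1b, a telomere-binding protein of the shelterin complex, 285 bp from the start on a CA repeat, with a score of 4.83 and rank 2109. Luzp4 (TG repeat, 3.17) and the globin gene Hbb-b2 (G-rich stretch, 2.86) followed. In siSeh1 they were in Ptx4 (TG repeat, 4.26), Nlrp9b (TATATG unit, 4.08), Phgdh, the first enzyme of serine synthesis (GC_rich, 3.79), and Gimap6 (CATATA unit, 2.68). Seh1 Ctrl had unranked peaks in Chil6, Gid8 and Gm438.

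The genes nearest the members were read against the share of all protein-coding genes so named, which was 8.71% in Seh1-flag, 1.62% in Seh1 Ctrl, 0.132% in Chd4 Ctrl, 1.26% in iKO, 0.174% for siSCR and 1.74% for siSeh1. Of 30 synaptic adhesion and ion channel genes with long introns, 17 were nearest a Seh1-flag member, 5 a Seh1 Ctrl member, 3 an iKO member and 3 a siSeh1 member, and none a member of the other lists. Examples were Nlgn1, a postsynaptic adhesion protein, with 7 Seh1-flag peaks, Cadm2 and Csmd3 with 5 each, and the neurexin gene Nrxn3 with 4, the highest of them an A tract with a score of 8.80 at the 95.1 percentile. The part of gene length in these counts was not tested. Among 24 neural stem cell factors, those named included Nr2e1 and Pax6 in Seh1-flag, Tcf4 in Seh1 Ctrl, and Nr2e1 and Vim in siSeh1. The peak nearest Pax6 was a T tract 91818 bp from the start, with a score of 5.49. The distances were long for most of these genes.

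Among 24 neuronal differentiation genes, those named included Bcl11b, Myt1 and Rbfox1 in Seh1-flag, Stmn2 in Seh1 Ctrl, and Rbfox1 and Sox11 in siSeh1. Of 15 NuRD subunits, Gatad2b and Mbd2 were named in Seh1-flag and none in the other lists. Of 31 nucleoporin genes, Gle1 was named in siSeh1 and none elsewhere. Of 20 satellite and heterochromatin factors, Cenpc1, which encodes a centromere protein, was named in Seh1-flag, Seh1 Ctrl and siSeh1, on a T tract 123339 bp away in the first and a GGAA repeat 575804 bp away in the second, and the chromatin remodeller Hells was named in Seh1-flag. Of 10 telomere factors, Rtel1 and Terf2ip were named in Seh1-flag and Pot1b in iKO. Seh1l and Chd4 were nearest to 0 members in all 6 lists, and Cdkn1a, a cell cycle inhibitor, to 1 member in Seh1-flag. For the lists other than the long-intron genes, counts of 0 to 4 were too small to set apart from the share of all genes.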

How the data were processed

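ChIP-seq peak lists of 6 libraries were used, 1 per group. Per the file headers the authors annotated the peaks with HOMER on mm10. The submitters' processing notes list Bowtie2 and HOMER with no version, and human genome builds. The sources used here do not give the peak caller, threshold, input or pooling, and depth is unknown. Each deposited list gives a score per peak, which is the authors' own value, and the distance to the nearest start. The scores of Seh1 Ctrl, whose peaks are intervals of 240 to 1296 bp, are all 0, and the other 5 lists give single positions.

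Members were selected by annotation class, and units were merged over rotation and strand. Positions were widened to 240 bp for overlaps. Shares carry exact Clopper-Pearson intervals (Python 3.11.15, numpy 2.4.6, pandas 2.3.3, scipy 1.17.1, bedtools 2.31.1), and the code was tested on simulated data. Of 3280 gene IDs nearest members, 3277 matched RefSeq.

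Members and gene lists were chosen with earlier results of these data known. Named were the 3 highest (or widest) peaks per class and list, the 5 highest near protein-coding starts per list, up to 10 loci with peaks of 3 or more lists, up to 4 genes per gene list, the 3 most frequent units and satellites, and Seh1l, Chd4 and Cdkn1a. Where the text gives only some of these, or names more genes or loci, the choice was made after the values were seen. Alternatives changed the list length, score limit, chromosomes, denominator, overlap rule and promoter window. Some genes of the gene lists are not reported here.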

Additional observations from a re-analysis of the deposited data

Results flagged for a closer look

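Low-complexity peaks gave differences of opposite sign in the Chd4 comparisons. The difference in their share of the list was -1.17 percentage points for iKO minus Ctrl and 0.0903 points for siSeh1 minus siSCR. Satellite peaks gave the reverse signs, at 0.247 points for iKO minus Ctrl and -0.218 points for siSeh1 minus siSCR. The low-complexity intervals of siSeh1 (0.326% to 0.480%) and siSCR (0.133% to 0.604%) overlap, and so do the satellite intervals within both pairs. The signs of these differences are therefore not settled. Each value compares a pair of single libraries, and whether the directions differ was not tested. Ctrl had 3 satellite peaks and siSCR had 8 low-complexity peaks.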

How the results depend on the processing

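With 1 library per group, leaving out a replicate was not possible, and the files give no depth. No paired analysis was possible because each group holds 1 library and no test was run. The cause of the changes below was not tested.

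With each ranked list shortened to the length of Chd4 Ctrl, the share of peaks in the 3 classes became 17.3% in Seh1-flag, 7.28% in iKO, 3.29% in siSCR and 5.55% in siSeh1. The difference turned from -1.69 to 3.38 points for iKO minus Ctrl and from -0.327 to 2.25 for siSeh1 minus siSCR. Most members of the shortened iKO and siSeh1 lists were GSAT_MM peaks. By counts chosen after seeing the data, GSAT_MM peaks in Seh1-flag fell to 24 and A or T tracts to 113 in Seh1-flag, 0 in iKO and 0 in siSeh1. In the higher-scoring part of each list (50% of peaks), the share was 14.1% in Seh1-flag, 2.51% in iKO and 2.49% in siSeh1, the 1-base unit 85.2% in Seh1-flag, and satellites 35.2% of members in iKO and 29.3% in siSeh1. Among repeat peaks alone the shares were 21.3%, 5.40%, 6.98%, 4.59%, 5.12% and 5.31%, in the order Seh1-flag, Seh1 Ctrl, Chd4 Ctrl, iKO, siSCR and siSeh1. The siSeh1 minus siSCR difference was then 0.192, and that of Seh1-flag minus Seh1 Ctrl was 15.9. Among intron and intergenic peaks the share was 2.43% in iKO and 2.54% in siSeh1, and on numbered autosomes 2.01% in iKO.

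Satellites as a share of members on numbered autosomes were 1.56% in Seh1-flag, 12.3% in Seh1 Ctrl, 14.9% in iKO, 11.8% for siSCR and 13.1% for siSeh1. With peaks within 1 kb counted once they were 2.81%, 13.8%, 17.3% and 16.2% in Seh1-flag, Seh1 Ctrl, iKO and siSeh1. Median percentiles were 46.8 for simple repeats in siSeh1, 87.2 for satellites in Chd4 Ctrl and 93.1 for satellites in siSeh1 on autosomes, and 99.5 (iKO) and 99.1 (siSeh1) for satellites among intron and intergenic peaks. With 1 peak per 1 kb locus the overlap was 10.8% for iKO in siSeh1, 8.88% for siSeh1 in iKO, 3.90% for Seh1 Ctrl in Seh1-flag, 7.02% for Seh1 Ctrl in iKO and 0.947% for Seh1-flag in Seh1 Ctrl. Within 1 kb it was 12.7% for Seh1 Ctrl in Seh1-flag and 3.28% for Seh1-flag in Seh1 Ctrl. With a 3 kb promoter window the share of members was 4.97%, 3.62%, 8.89%, 5.31%, 7.58% and 4.21%, in the order of lists above.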
